A study of Homo sapiens with 4 samples.

Results

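The genes of prostaglandin synthesis and of the prostaglandin E2 receptors were followed in A2780s cells, an established human ovarian adenocarcinoma line of the epithelial ovarian cancer (EOC) type, after stable suppression of GALNT3, an enzyme that starts mucin-type O-glycosylation. The group holds 10 genes (PLA2G4A, PTGS1, PTGS2, PTGES, PTGIS, HPGD, PTGER1, PTGER2, PTGER3 and PTGER4) and was chosen by name, with the knockdown over ctrl ratios of these arrays already in view. The arrays carry 15 probes for them, out of 25398 probes that could be named for 17240 genes. RNA of 2 stable clones expressing the same GALNT3 shRNA (sh-G1 and sh-G2) was hybridised against RNA of 1 mock-transfected clone (ctrl), with 2 arrays per clone. All clones came from A2780s cells under puromycin selection. The knockdown clone carried Cy5 on replicate 1 and Cy3 on replicate 2. Because a single ctrl clone served all 4 arrays, a property of that clone cannot be told apart from an effect of the shRNA. No label says that the 2 arrays of a clone came from separate cultures, so the dye-swapped pair was averaged and counted as 1 replicate (n = 2 clones).

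Prostaglandins are lipid signals that act on the cell that makes them and on its neighbours. Cytosolic phospholipase A2, encoded by PLA2G4A, frees arachidonic acid from membranes, the cyclooxygenases PTGS1 and PTGS2 turn it into prostaglandin H2, and terminal synthases such as PTGES (prostaglandin E2) and PTGIS (prostacyclin) finish the product. HPGD inactivates prostaglandins. Prostaglandin E2 is read by the G protein-coupled receptors EP1 to EP4, encoded by PTGER1 to PTGER4, of which EP2 and EP4 raise cyclic AMP, EP3 mostly lowers it and EP1 raises calcium. PTGS2 is the inducible cyclooxygenase and is often raised in epithelial cancers.

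The sequences below belong to the members with the lowest and the highest ratio, PTGER4 and PLA2G4A, and to PTGS2, which lies beside PLA2G4A on chromosome 1 in RefSeq gene order. They are the 250 bases before the annotated start of each gene in the RefSeq promoter table of the assembly GRCh38.p14, given on the strand of the gene. Capitals mark matches, on either strand, to TATAAA (the TATA box), GGGCGG (the GC box), TGACG (the core of the cyclic AMP response element), TGANTCA (the AP-1 site) and CACGTG (the canonical E-box), and no match overlapped another. Below them stands the primer pair with which the study measured PTGER4 transcripts by quantitative PCR.
PTGER4, chr5:40679665-40679914, plus strand: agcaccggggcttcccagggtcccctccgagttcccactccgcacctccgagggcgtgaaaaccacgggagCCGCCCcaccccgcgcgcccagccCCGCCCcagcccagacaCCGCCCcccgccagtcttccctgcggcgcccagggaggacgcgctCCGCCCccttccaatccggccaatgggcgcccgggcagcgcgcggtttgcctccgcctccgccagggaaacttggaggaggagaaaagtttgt
PLA2G4A, chr1:186828699-186828948, plus strand: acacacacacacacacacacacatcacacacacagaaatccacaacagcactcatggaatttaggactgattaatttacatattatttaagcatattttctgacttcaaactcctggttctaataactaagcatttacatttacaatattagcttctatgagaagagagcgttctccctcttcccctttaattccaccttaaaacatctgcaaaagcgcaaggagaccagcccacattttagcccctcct
PTGS2, chr1:186680424-186680673, minus strand: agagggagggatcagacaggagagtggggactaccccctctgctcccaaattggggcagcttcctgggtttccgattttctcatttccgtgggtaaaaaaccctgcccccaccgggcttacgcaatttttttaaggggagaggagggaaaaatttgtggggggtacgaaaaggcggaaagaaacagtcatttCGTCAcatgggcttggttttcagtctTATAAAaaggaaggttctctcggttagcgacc
PTGER4 forward primer: cactgccagacctcagtgaa
PTGER4 reverse primer: accagcctcatccaccagta

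The 3 windows differ in composition. The PTGER4 window held 72.8% G and C, with 4 matches to the GC box. At least 1 match to this motif was found in 42.6% of 35116 windows of this length. The share of windows with 4 matches is not given here. The PTGS2 window held 50.4% G and C, with 1 TATA box (found in 10.7% of windows) beginning 32 bases before the start and 1 match to the core of the cyclic AMP response element (21.2% of windows) beginning 58 bases before it. The PLA2G4A window held 38.8% G and C and none of the letters searched.

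All 4 arrays lay on 1 slide, with 43376 spots each that are not controls, and 0 spots were saturated. The scanner software marked 88.1% to 97.0% of spots as well above background for the knockdown RNA and 95.9% to 97.6% for ctrl. The single GALNT3 probe had log2 ratios of -0.09 and 0.08 in sh-G1 and 0.12 and -0.14 in sh-G2, with intensities of 64.0 to 91.5 in the ctrl channel over a background of 36.5 to 41.0, so the arrays do not check the knockdown. All 14 probes of 10 ovarian epithelial marker genes were well above background in ctrl on all 4 arrays, a bar that nearly every spot passed, and the dimmest, a PAX8 probe, reached 73.0 to 125 in ctrl. Of these markers, 3 of 3 KRT18 probes and 1 of 2 KRT8 probes, which detect the keratin pair of simple epithelia, were called lower in the knockdown clones, with mean log2 ratios of -2.50, -2.32, -1.96 and -1.03 (limma adjusted p of 0.0214, 0.0365, 0.0195 and 0.0316). With ctrl assumed to vary as the knockdown clones do, limma called 0 of all probes kept, and the adjusted p of these 4 rose to 0.1440, 0.2403, 0.1321 and 0.2101. The other marker probes were not called, although the second KRT8 probe (-0.44, limma adjusted p = 0.1508) and EPCAM (-0.33, limma adjusted p = 0.4053) were below ctrl on all 4 arrays. CDH1 and MUC16 lay at -0.01 and -0.02. The part of these keratins in the results on prostaglandin genes was not tested.

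Of the 15 probes, 12 passed the filter, which asked that each array had signal well above background in Cy5, in Cy3 or in both, and these stand for 9 of the 10 genes. The gene without such a probe is PTGES, for want of a value on 1 array. In cell populations such as these, fewer cells carrying a transcript and less of it per cell cannot be told apart. One PTGER4 probe lay below ctrl by 1.5-fold or more on all 4 arrays, as did 0.920% of the 39151 probes kept. The PLA2G4A probe lay above ctrl by 1.5-fold or more on all 4 arrays, as did 0.230% of all probes kept. This contrast was in view when the genes were chosen, so these counts are a description and carry no test. Of the 12 probes, 3 kept 1 sign on all arrays, namely the PLA2G4A probe and both PTGER4 probes. The share of all probes kept that do so is not given here, so nothing is read from this count. PTGER4 probe A_23_P435394 had -0.01 and -0.03 with Cy5 on the knockdown clone and -0.31 and -0.28 with Cy3. In 4 others (PTGER1, PTGER3, HPGD and 1 of PTGIS) the sign followed the dye in both clones, as it did in 44.3% of all probes kept.

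**Figure D1:**
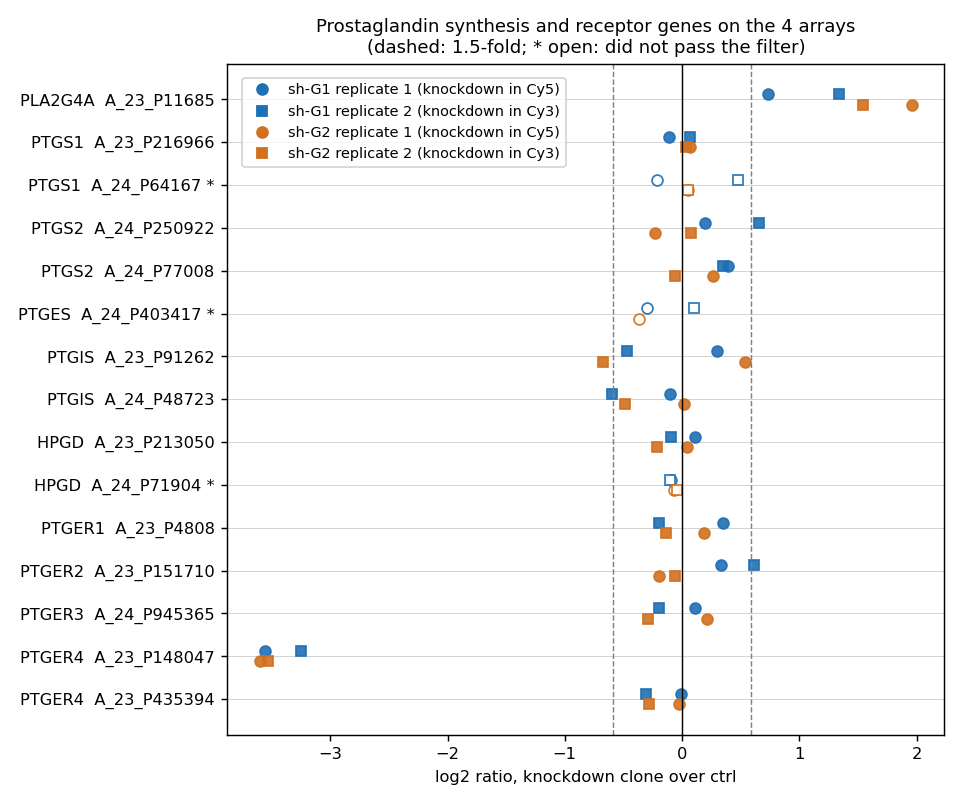
Log2 ratio of knockdown clone over ctrl (x axis) for each of the 15 probes of the 10 genes (y axis) on each of the 4 arrays, with circles for replicate 1, squares for replicate 2, blue for sh-G1 and orange for sh-G2. Dashed lines mark 1.5-fold and open symbols mark 3 probes that did not pass the filter. The 4 values of PTGER4 probe A_23_P148047 lie between -3.60 and -3.25 and those of PLA2G4A between 0.73 and 1.96, while those of the second PTGER4 probe, A_23_P435394, lie between -0.31 and -0.01.

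PLA2G4A, the phospholipase that supplies arachidonic acid, was the only member whose probe was higher than ctrl beyond 1.5-fold on all arrays. The study had already listed PLA2G4A among the genes it found upregulated on these same arrays. Its log2 ratios were 0.73 and 1.34 in sh-G1 and 1.96 and 1.54 in sh-G2, with a mean of 1.39 ± 0.35 (SE, n = 2 clones), which is 2.62-fold. The median intensities before normalisation were 2648.3 and 3930.1 for sh-G1 against 2759.2 and 1600.6 for ctrl, and 7345.8 and 6297.2 for sh-G2 against 2965.2 and 1957.8 for ctrl. On sh-G1 replicate 1 the intensities were thus near each other before loess, and the ratio of 0.73 is that after it. Both sh-G2 arrays lay above both sh-G1 arrays. The probe is spotted 10 times on each array. After 1 or 2 outlier spots per array were left out, the SD between spots of an array was 0.14 to 0.18. On sh-G1 replicate 1 the spots ranged from 0.57 to 1.01 and on sh-G2 replicate 1 from 1.75 to 2.20. At a 2-fold threshold the probe no longer passed on every array.

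PTGS2 lay nearer to ctrl than PLA2G4A did. Its probe spotted 10 times, A_24_P250922, had log2 ratios of 0.20 and 0.66 in sh-G1 and of -0.23 and 0.08 in sh-G2. Its other probe, A_24_P77008, had 0.39 and 0.35 in sh-G1 and 0.26 and -0.06 in sh-G2. With both probes the sh-G1 arrays lay above the sh-G2 arrays without overlap, and the means over the clones were 0.18 ± 0.25 and 0.23 ± 0.14 (SE, n = 2 clones). The SD between spots of A_24_P250922 on an array was 0.06 to 0.16.

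**Figure D2:**
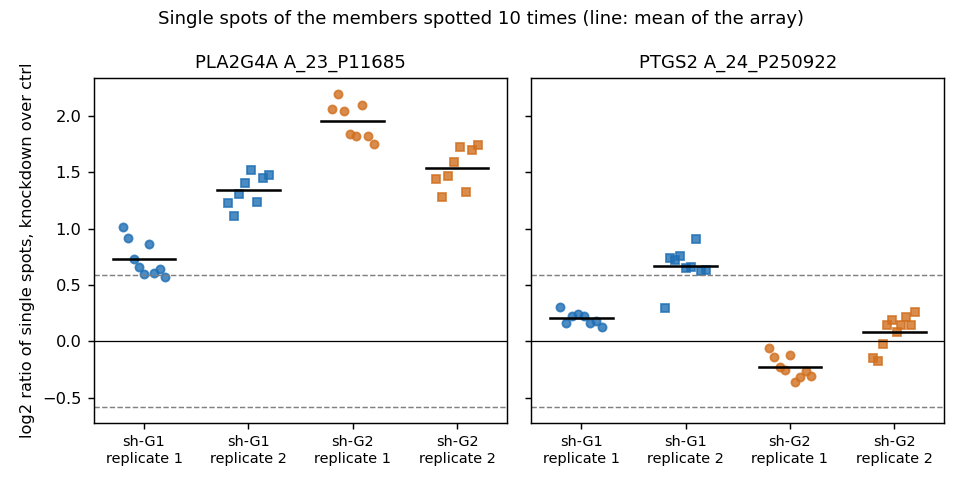
Log2 ratio of single spots (y axis) of the PLA2G4A probe A_23_P11685 (left) and the PTGS2 probe A_24_P250922 (right), each spotted 10 times per array, on the 4 arrays (x axis), with the array mean as a line and 1.5-fold as dashed lines. The PLA2G4A means run from 0.73 to 1.96 and the PTGS2 means from -0.23 to 0.66, and spots of different arrays overlap where the array means are close.

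The probes of the other enzymes stayed near ctrl, followed the dye or did not pass the filter. PTGS1, the constitutive cyclooxygenase, had log2 ratios of -0.11 and 0.07 in sh-G1 and 0.07 and 0.03 in sh-G2 with probe A_23_P216966. Its second probe did not pass the filter, with signal well above background on 1 array for the knockdown RNA and on 2 arrays for ctrl. PTGES, the prostaglandin E2 synthase, has 1 probe, whose only spot carried an outlier mark on sh-G2 replicate 2. On the other arrays its log2 ratio was -0.30 and 0.10 in sh-G1 and -0.37 in sh-G2, with knockdown intensities of 67.0 to 90.0 over local backgrounds of 39.5 to 42.0. With the marked spot kept, its value on sh-G2 replicate 2 was 0.42 and the mean was -0.04.

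Both probes of PTGIS, the prostacyclin synthase, moved with the dye. Probe A_23_P91262 had log2 ratios of 0.30 and -0.47 in sh-G1 and 0.54 and -0.67 in sh-G2, positive where the knockdown clone carried Cy5 and negative where it carried Cy3. Its mean over the dye swap was -0.07. Probe A_24_P48723 had -0.10 and -0.60 in sh-G1 and 0.02 and -0.49 in sh-G2, with a mean of -0.29 ± 0.06 (SE, n = 2 clones), and its lower value in both clones was that with Cy3 on the knockdown clone. HPGD, which inactivates prostaglandins, had with probe A_23_P213050 ratios of 0.11 and -0.09 for sh-G1, and for sh-G2 of 0.04 and -0.21. Its second probe was not well above background in either channel on any array.

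The 2 PTGER4 probes, which carry the same transcript name in the array files, disagreed. Probe A_23_P148047 had log2 ratios of -3.56 and -3.25 in sh-G1 and -3.60 and -3.53 in sh-G2, with a mean of -3.48 ± 0.08 (SE, n = 2 clones), which is 11.2-fold lower than ctrl with the background correction used here. Probe A_23_P435394 had -0.01 and -0.31 on the sh-G1 arrays and -0.03 and -0.28 on the sh-G2 arrays. Its mean was -0.15 (SD between clones 0.01), and on each array it lay within 1.5-fold of ctrl. Its lower value in both clones was that with Cy3 on the knockdown clone. The ranges of the probes over the 4 arrays were far apart. PTGER4 encodes EP4, one of the receptors that raise cyclic AMP.

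The intensities behind these ratios show that the first probe had a clear signal in ctrl and little in the knockdown clones. In the ctrl channel A_23_P148047 read 1960 and 935.5 on the sh-G1 arrays and 1812 and 1235 on the sh-G2 arrays. In the knockdown channel it read 88.0 and 80.5 in sh-G1 and 84.0 and 114 in sh-G2, over local backgrounds of 36.0 to 43.5. The software marked the knockdown channel as well above background on 3 of 4 arrays, with sh-G2 replicate 2 as the exception. On that array fewer spots passed for the knockdown RNA, 88.1% against 95.4% to 97.0% on the others. The size of the ratio moved with the handling of background, with a mean of -3.08 without background correction and of -4.79 in the ratios of the scanner software. When both channels had to be well above background on every array, the probe was left out.

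The second probe had signal in every channel. A_23_P435394 read 890.5 and 626 in ctrl on the sh-G1 arrays and 701 and 624 on the sh-G2 arrays, against 523.5, 458, 449.5 and 547 in the knockdown clones. With the primer pair above, the study reported lower PTGER4 expression after GALNT3 knockdown, among genes it had picked from its own array results. The probe sequences are not used here, so where each probe lies in the PTGER4 transcript, relative to the other and to that primer pair, was not analysed.

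**Figure D3:**
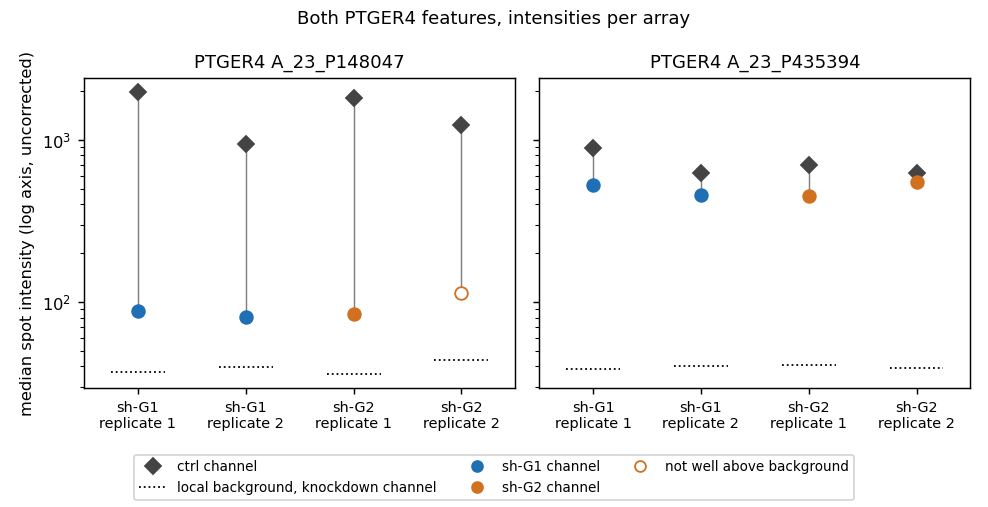
Uncorrected median spot intensity (y axis, log scale) of both PTGER4 probes on the 4 arrays (x axis), with diamonds for the ctrl channel, circles for the knockdown channel and dotted lines for the local background of the knockdown channel. Probe A_23_P148047 (left) falls from between 935.5 and 1960 in ctrl to between 80.5 and 114 in the knockdown clones, and the open circle was not well above background. Probe A_23_P435394 (right) stays between 449.5 and 890.5 in both channels.

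Of the other E2 receptors, PTGER2 had mean ratios of opposite sign in the clones, with the sh-G2 values within 1.5-fold of ctrl. The PTGER2 probe (EP2, which also raises cyclic AMP) had log2 ratios of 0.33 and 0.61 in sh-G1 and -0.20 and -0.06 in sh-G2, so both sh-G1 arrays were above ctrl and both sh-G2 arrays below it. PTGER1 (EP1) had ratios of 0.35 and -0.20 on the sh-G1 arrays, and on the sh-G2 arrays of 0.19 and -0.14. PTGER3 (EP3) had ratios of 0.11 and -0.20 on the sh-G1 arrays, and on the sh-G2 arrays of 0.21 and -0.29. The means of PTGER1 and PTGER3, 0.05 and -0.04, were smaller than the difference between the dye-swapped arrays of either clone.

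The clones were then compared with each other, a contrast from which the shared ctrl clone drops out. A limma fit over the 4 arrays, in which dye was a term, gave the test, so that its spread is that of dye-swapped arrays and the p-values compare these RNAs, not clones at large. Of all probes kept, 0.123% were called different between sh-G1 and sh-G2 after Benjamini-Hochberg adjustment, and 0 of the 12 prostaglandin probes were. The ratios of both clones were in view when the members were chosen, so the counts from this contrast are a description too. At an unadjusted p under 0.05 the test passed 3 of the 12, against 7.45% of all probes kept.

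The 3 were PTGER2, PTGS2 and PLA2G4A. For PTGER2 the difference sh-G1 minus sh-G2 was 0.60 on the log2 scale (95% interval 0.33 to 0.88, limma adjusted p = 0.2102). For PTGS2 probe A_24_P250922 it was 0.51 (interval 0.26 to 0.76, limma adjusted p = 0.2437), and for the second PTGS2 probe it was 0.27 (limma adjusted p = 0.6715). For PLA2G4A it was -0.71 (interval -1.40 to -0.01, limma adjusted p = 0.6625), with sh-G2 the higher. The ranges of the clones did not overlap for these 4 probes, as for 17.9% of all probes kept. The knockdown signal of PTGER4 probe A_23_P148047 lay near background in both clones, so this contrast could hardly show a further fall in either. Its difference was 0.16 (interval -0.11 to 0.43, limma adjusted p = 0.8425), and nothing is read from it. For PTGER4 probe A_23_P435394 the difference was -0.01 (interval -0.26 to 0.24, limma adjusted p = 0.9968).

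**Figure D4:**
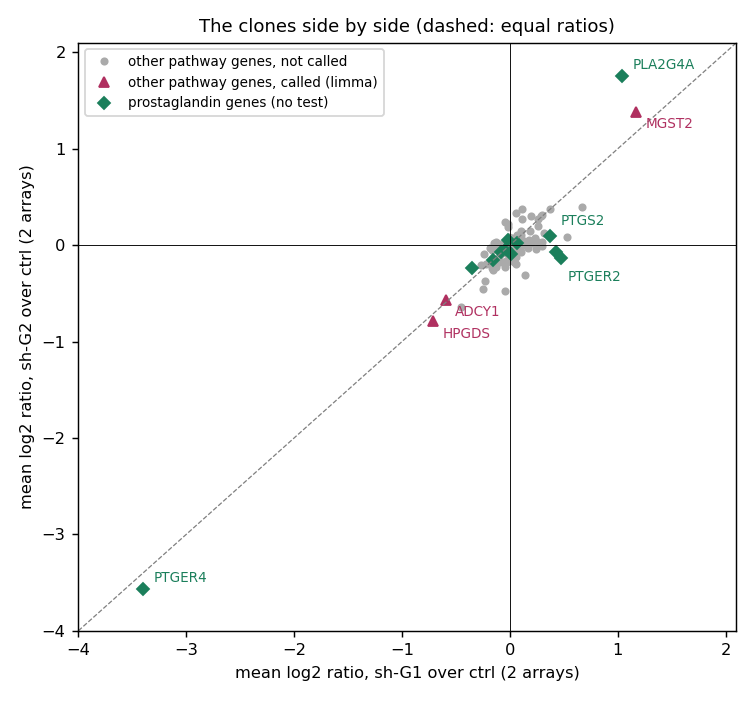
Mean log2 ratio over ctrl of sh-G1 (x axis) and of sh-G2 (y axis), each over 2 arrays, for the 12 prostaglandin probes that passed the filter (green diamonds) and 121 probes of other pathway genes (grey, or red triangles where called by limma). The dashed line marks equal ratios, and the clones share the ctrl RNA. PTGER4 lies at -3.40 and -3.57, PLA2G4A at 1.04 and 1.75, and PTGER2 at 0.47 and -0.13.

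Genes around the pathway were taken from 7 lists (79 genes, 78 of them on the array) that hold none of the members. Their mean ratio was tested against 0 with limma over all probes kept. Like the members, the lists were chosen with earlier results of these data known, so the shares called are a description. Of 121 probes tested, 1 was called higher and 2 were called lower, against 0.138% called higher and 0.700% called lower over all probes kept, and 20 had an unadjusted p under 0.05, which 13.3% of all probes kept had too. The median of the mean log2 ratios was 0.00 in the lists and -0.004 over all probes kept. The test leaves out the spread of ctrl. With ctrl assumed to vary as sh-G1 and sh-G2 do, 0 were called, and 1 was called without an intensity trend or without sh-G2 replicate 2.

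The gene called higher was MGST2, a microsomal glutathione transferase that can make leukotriene C4. Its log2 ratios were 0.89 and 1.44 in sh-G1 and 1.28 and 1.48 in sh-G2, with a mean of 1.27 ± 0.08 (limma's moderated SE, as for the other tested genes, n = 2 clones, limma adjusted p = 0.0360), above ctrl on all 4 arrays. HPGDS, the hematopoietic prostaglandin D synthase, was called lower, with -0.69 and -0.73 on the sh-G1 arrays, -0.95 and -0.64 on the sh-G2 arrays and a mean of -0.75 ± 0.05 (moderated SE, n = 2 clones, limma adjusted p = 0.0387). The study lists both genes among those it selected on these arrays, so neither call is independent evidence. ADCY1, a cyclic AMP-forming adenylate cyclase, was called lower with 1 of 2 probes, A_24_P577694, at -0.73 and -0.44 for sh-G1 and -0.70 and -0.44 for sh-G2 (mean -0.58 ± 0.04, moderated SE, limma adjusted p = 0.0447). Its other probe had a mean of 0.02.

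By list, the synthesis genes beside the members (8 genes, 12 probes) had 1 probe called lower, HPGDS, and mean log2 ratios from -0.75 to 0.23. The next largest was PRXL2B, a prostaglandin F synthase, at -0.35 (limma adjusted p = 0.2112). The other phospholipases A2 had 0 of 12 probes called and ranged from -0.11 to 0.24, both ends within 1.5-fold of ctrl, with the largest values at the 2 PLA2G12A probes (0.24 and 0.20). The 1.39 of PLA2G4A was larger than the values of these 9 tested genes, as a description only. PLA2G4A was chosen with its ratio in view, and phospholipases A2 outside the list were not compared. PLA2G4B was listed but has no probe.

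The receptors for other prostanoids had 0 of 8 probes called and ranged from -0.18 (TBXA2R, the thromboxane receptor) to 0.09 (PTGIR, the prostacyclin receptor). Transport and breakdown genes had 0 of 11 called, with PTGR2, a prostaglandin reductase, at 0.29 and 0.25 with its 2 probes (limma adjusted p of 0.1671 and 0.2149). In the leukotriene and lipoxygenase branch 1 of 17 probes was called, MGST2, and the next largest was CYSLTR2, a cysteinyl leukotriene receptor, with 0.54 and 0.52 in sh-G1 and 0.14 and 0.03 in sh-G2.

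Genes that couple the receptors to cyclic AMP (23 genes, 37 probes tested) had 1 probe called, that of ADCY1. PRKACB, a catalytic subunit of protein kinase A, was the highest of the list at 0.53 ± 0.08 (moderated SE, n = 2 clones, limma adjusted p = 0.1501), with 0.60 and 0.73 on the sh-G1 arrays and 0.60 and 0.20 on the sh-G2 arrays, and its second probe was at 0.15. Of 24 probes for 13 genes that cyclic AMP is known to induce, 0 were called. The lowest was FOS, an immediate early gene, with -0.41 and -0.49 on the sh-G1 arrays, -0.44 and -0.84 on the sh-G2 arrays and a mean of -0.55 ± 0.07 (moderated SE, n = 2 clones, limma adjusted p = 0.1014). PDE4D, a phosphodiesterase that breaks cyclic AMP down, followed at -0.30 (limma adjusted p = 0.1942). The NR4A, CREM and PDE4B probes all had mean log2 ratios between -0.08 and 0.26.

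The measured genes beside the members were read in RefSeq gene order, without distances, so a nearest measured gene need not lie close. Around PTGER4 on chromosome 5, 1 of 12 probes of the 8 nearest measured genes was called. It was that of DAB2, an endocytic adaptor and the nearest measured gene on one side, with -2.65 and -2.26 on the sh-G1 arrays, -2.04 and -2.33 on the sh-G2 arrays and a mean of -2.32 ± 0.09 (moderated SE, n = 2 clones, limma adjusted p = 0.0200). TTC33, the nearest on the other side, lay between -0.09 and -0.01 with 3 probes, and the remaining neighbours between -0.14 and 0.17.

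PTGS2 and PLA2G4A lie side by side on chromosome 1 among measured genes, and their probes were not alike. PLA2G4A was at 1.39 in the mean and the PTGS2 probes were at 0.18 and 0.23. Of 10 probes of the 8 nearest measured genes, 0 were called by limma, and their means ranged from -0.98 to 0.59. On the PTGS2 side, the probes of PDC, ODR4, TPR and HMCN1 lay between -0.10 and 0.07. On the PLA2G4A side, BRINP3 was at 0.59 (limma adjusted p = 0.0898), RGS18, a regulator of G protein signalling, at -0.98 (limma adjusted p = 0.0551) and RGS13 at 0.56 (limma adjusted p = 0.0642). RGS1 had a mean of -0.14 in sh-G1 and of 0.49 in sh-G2. RGS18 and DAB2 are among the genes that the study selected on these arrays.

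**Figure D5:**
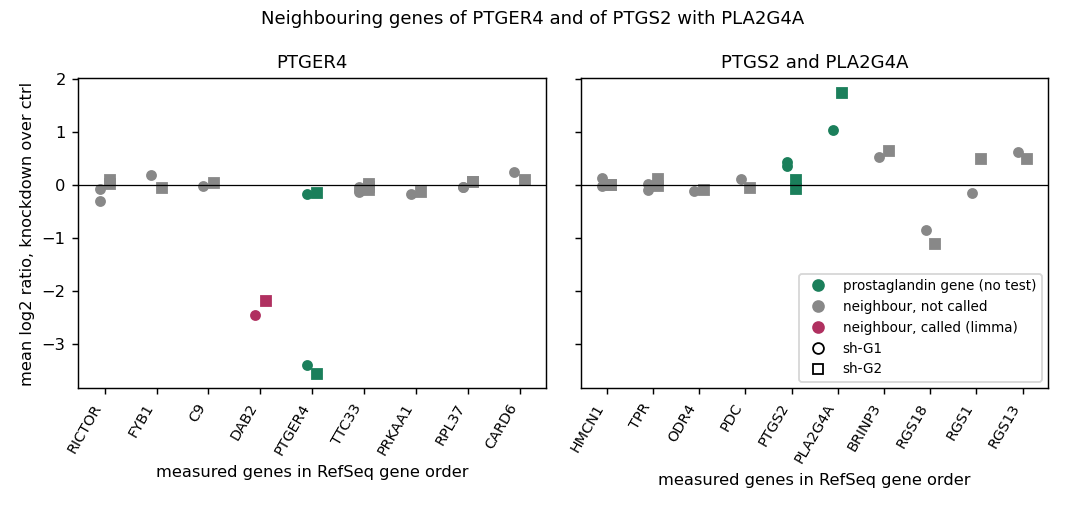
Mean log2 ratio over ctrl (y axis) of sh-G1 (circles) and sh-G2 (squares) for PTGER4 (left) and for PTGS2 and PLA2G4A (right) with the 4 nearest measured genes on each side, in RefSeq gene order (x axis, no distances) and with a point for each probe. On the left, DAB2 at -2.45 and -2.18 is the only neighbour called, and on the right 0 neighbours were called while PLA2G4A lies at 1.04 and 1.75.

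The genes whose 4 log2 ratios lay nearest to those of PTGER4 probe A_23_P148047 (Euclidean distance over the 4 arrays) were ANXA3 at a distance of 0.32, FLRT3 at 0.47 and ARMCX2 at 0.72. ANXA3, an annexin, had ratios of -3.63 and -3.49 on the sh-G1 arrays, and on the sh-G2 arrays of -3.42 and -3.56. FLRT3, a leucine-rich adhesion protein, had a mean of -3.67 and ARMCX2 of -3.73. Other handling of background moved the mean of the PTGER4 probe by more than these distances, so no order is read from them. The study had also selected these genes on the same arrays. A level particular to the ctrl clone cannot be told apart from this pattern.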

How the data were processed

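Total RNA of sh-G1, sh-G2 and ctrl was compared on 4 Agilent Whole Human Genome arrays of 2 colours. The authors extracted, with Agilent Feature Extraction (version 8.5.1.1 per the labels, 10.5.1.1 per the file headers), the median spot intensity and local background intensity of each channel, which were deposited uncorrected, with the log10 of red over green (Cy5 over Cy3), which the software makes from its own background-subtracted, dye-normalised signals. The deposited series matrix equals that log10 ratio for 3 arrays (column medians 0.0055, 0.0084 and 0.0) and, for sh-G1 replicate 2, the error of the ratio (median 0.0622). That deposited error is a score and was not used as a ratio. The normalisation behind the study's own gene list is not given in the sources used here. Spot p-values of the software were not used.

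From the median intensities, background was corrected with normexp (offset 50) and log2 ratios were normalised with loess in limma 3.58.1 (R 4.3.3), control and outlier spots having weight 0. Outlier spots (145 to 215 per array) were left out, dye swaps were turned so that each ratio reads knockdown over ctrl, and repeated spots were averaged per probe. A probe was kept if each array had signal well above background in either dye or both (39151 of 40905). Probes were named through RefSeq transcripts of GRCh38.p14, which named 25398 of 41000, and all probes of a gene were kept apart. The mean of the clones against 0 and the difference of the clones (terms sh-G1, sh-G2 and dye) were tested with limma (lmFit, eBayes with trend), with Benjamini-Hochberg adjustment over all probes kept and a threshold of 0.05. The precision is limited by having 4 arrays. The random block used statmod 1.5.0. Tables and figures were made with Python 3.11.15, pandas 2.3.3 and matplotlib 3.10.9. On simulated data the limma tests made more false calls than their threshold allows when the spread was taken from the dye-swapped arrays of each probe. For the mean of the clones they came close to it when the spread was drawn from limma's fitted prior, so calls near the threshold are weak.

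The members and lists were chosen with earlier results of these data known. Named by rule were GALNT3, every probe of the members, and in each list the probes called and the 2 largest in absolute mean. The rule also took the 4 nearest measured genes on each side and the 3 genes most like the lowest PTGER4 probe. KRT8 and KRT18 were named after their values were seen. The other markers named and the NR4A, CREM and PDE4B genes also fell outside the rule. Alternatives were the software's log ratios, the series matrix, other background and centring, other filters, outlier spots kept, a 2-fold threshold, each array left out, the ctrl clone given a spread, clone as a random block, no intensity trend and no dye term.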

Additional observations from a re-analysis of the deposited data

Results flagged for a closer look

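The PTGER2 probe had mean ratios of opposite sign in the clones, which is why it is shown again here. Its mean log2 ratio over ctrl was 0.47 in sh-G1 (0.33 and 0.61 on the 2 arrays) and -0.13 in sh-G2 (-0.20 and -0.06). The test of the difference itself gave 0.60 on the log2 scale with a limma adjusted p of 0.2102, which did not pass the threshold of 0.05. Over the alternatives the difference lay between 0.46 and 0.74. Which clone departs from the parental line was not analysed, because no array held RNA of untransfected A2780s cells.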

How the results depend on the processing

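PTGER4 probe A_23_P148047 stayed the 1 member at least 1.5-fold lower on all arrays under 12 of the alternatives tried, and the count was 0 with both channels required above background, because the probe is then left out. The PLA2G4A probe stayed the 1 member at least 1.5-fold higher under 12 of the alternatives, and the count was 0 at 2-fold. With each array left out, both counts stayed at 1. The mean log2 ratio of A_23_P148047 ran from -4.79 to -3.08, with -4.37 at an offset of 0, and that of PLA2G4A from 1.24 to 1.54. For probes of members near 0 the alternatives moved the mean by more than the spread between clones in several settings, most for PTGIS probe A_23_P91262 (-0.38 to 0.27).

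Of the other pathway genes, 3 probes were called. The number was 5 with the series matrix values of 3 arrays, 13 with clone as a random block, 0 with ctrl given the clones' spread and 1 without an intensity trend. With each array left out it lay between 1 and 6. The block correlation was -0.656. MGST2 was called under all of these except the ctrl spread, HPGDS was not called without sh-G2 replicate 2 (limma adjusted p = 0.0609) without the trend (0.0538) or with the ctrl spread (0.2539), and ADCY1 was lost in 5 settings. The difference between clones was called for 0 members under all of its 14 alternatives, and with an array left out it has no dye term. The cause of these changes was not tested. Over all probes kept, 54 were called higher and 274 lower with the main processing. The series matrix values gave 213 and 792, the random block 2569 in either direction. Across probes, dye-swapped arrays correlated at 0.324 in sh-G1 and 0.186 in sh-G2. Arrays of both clones with the same dye order correlated at 0.613 and 0.732. The negative block correlation narrows the SE of the mean, so calls with the random block are not read as stronger evidence.

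The sign of the mean changed for 5 member probes near 0. These were PTGIS A_23_P91262 (0.08 with the software ratio, 0.27 with the series matrix, -0.38 to 0.23 with each array left out), PTGS1 (-0.02 with the series matrix, -0.03 to 0.06 with each array left out), and, with each array left out, PTGER1 (-0.09 to 0.19), PTGER3 (-0.17 to 0.08) and HPGD (-0.10 to 0.02). The second KRT8 probe was called with the series matrix, with the random block and without sh-G1 replicate 2 (limma adjusted p of 0.0212, 0.0066 and 0.0135). The sign also changed for GALNT3 (0.02 without background correction, 0.16 with median centring, 0.11 with the software ratio and -0.08 to 0.06 with each array left out) and for the clone difference of PTGER4 probe A_23_P435394 (0.08 with the software ratio and -0.16 to 0.14 with each array left out).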
